A study of Mus musculus with 11 samples.

Results

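The mouse Zfp genes examined here were the 324 protein-coding genes whose symbol is Zfp followed by a number, with or without a final letter, out of 13088 genes (12009 of them protein-coding) in a table of nascent exon reads. They were chosen by name alone, and Zfp42, Zfp57 and Zfp36 were left out by the rule. For 198 of the 324 a second table also held reads of the upstream antisense RNA (uaRNA), the short-lived transcript that leaves a promoter in the direction opposite to the gene, out of 5867 such regions in all. The assay was transient transcriptome sequencing (TT-seq), which reads recently made RNA: cells are fed 4-thiouridine (4sU), and the RNA fragments that hold it are tagged with biotin and captured. The cells were wild-type F121-9 mouse embryonic stem cells, an established female line of mixed CAST and 129 background, grown without serum in the presence of LIF and of inhibitors of MEK and GSK3. Transfection was with 30 nM of a control siRNA that targets no gene (siNT) in 3 libraries (replicates 1, 2 and 3) and with 30 nM of an siRNA against Zc3h4 (siZC3H4) in 2 libraries (replicates 2 and 3). Labelling with 500 µM 4sU lasted 20 minutes in all 5, and cells were collected 47 hours from transfection. The labels do not tie replicates to separately grown cultures, so p-values measure only the spread between these samples, which may be technical. A further 3 DMSO and 3 dTAG-13 samples of the series are not analysed here.

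Zfp genes encode proteins with tandem zinc fingers, each a short fold around a zinc ion that reads a few bases of DNA. Many of them also carry a KRAB domain, which recruits the corepressor Trim28 and, through it, the histone methyltransferase Setdb1 and other silencing factors, and in embryonic stem cells this machinery keeps transposable elements and imprinted regions silent. They form one of the largest gene families in mammals, and many members arose by local duplication and lie in clusters on the same chromosome. ZC3H4, with WDR82, forms the Restrictor complex, which ends the transcription of short noncoding RNAs such as uaRNAs soon after it starts. The study asked how the sequence of a transcript bears on that attenuation.

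All values are reads divided by one depth factor per library that the authors applied, and a change is siZC3H4 minus siNT in log2(value + 1), where the added 1 shrinks the changes of weakly read regions. Before that division, exon reads totalled 14840637 to 26548710 per library and uaRNA reads 996927 to 2648683. Features that averaged 10 or more across the 5 libraries were tested with limma, and "rose" and "fell" are used only of an adjusted p under 0.05 over all features of the table. Since that mean spans both groups, a feature under 10 in siNT could enter the test through the siZC3H4 libraries alone, which favours rises. Zc3h4 itself had 3465, 3610 and 3363 exon reads in siNT against 7285 and 6718 in the other 2 libraries, a rise of 1.01 (limma adjusted p = 0.00431). The siRNA target was thus higher, not lower, in nascent exon reads, so these are called the libraries labelled siZC3H4. All 9 markers of naive stem cells were in the table and none of them was called, and their summed levels were 96353 to 118096 reads in siNT against 85077 to 104288 in those labelled siZC3H4. Of 6 fibroblast or feeder genes, Col1a1, Col1a2, Col3a1 and Postn were not listed. The other 2, Thy1 and Fn1, had summed levels of 27917 to 32853 reads in siNT against 28045 to 29757, and neither was called. No marker of 5 other cell types was called, but several of these markers were not listed. The 1 listed gene of the two-cell-like state was below the level tested and so could not be called. The summed level of 4 neural genes was nevertheless 1310 to 1595 reads in siNT against 1892 to 1944, and the 1 listed gene of the two-cell-like state had 2.56 to 7.83 against 14.1 to 15.3, and their part in the changes below was not tested.

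Zfp genes were transcribed at modest levels in the control cells. Their median siNT level was 104 exon reads per kb of transcript, against 198 over all protein-coding genes, with quartiles of 46.2 and 224. The highest per kb were Zfp229 with 2022, Zfp296 with 1873, Zfp553 with 1831, Zfp207 with 1825 and Zfp706 with 1740.5 reads per kb. Zfp296 is a partner of the NuRD remodelling complex in pluripotent cells, and Zfp207 is a microtubule-binding protein of the mitotic spindle. The siNT exon reads of Zfp229 were 1129, 1203 and 1519.6, those of Zfp296 2474, 3577 and 2342 and those of Zfp553 5703, 5354 and 5799. Per kb, though not in reads, the spreads of the 3 libraries of Zfp229 and Zfp296 overlapped, so the order of these leading genes is not settled. The level of Zfp229 per kb rests on a listed transcript length of 635 bases, against a median of 3207 for the members.

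A uaRNA region was listed for 61.1% of the Zfp genes and for 48.9% of all protein-coding genes. Of the 126 Zfp genes without one, 33 (26.2%) had another gene of the exon table on the opposite strand that started within 1 kb of their own start. Starts on either side were counted, upstream or inside the gene. Of the 198 with a region, 1 had such a gene. Over all protein-coding genes the same shares were 31.7% and 0.869%. The median siNT uaRNA level was 36.0 reads per region for Zfp genes and 42.4 for all. In the 194 members with both regions and a siNT exon mean of 10 or more, the median was 10.1 uaRNA reads per 100 exon reads in siNT and 19.3 in the libraries labelled siZC3H4, and uaRNA reads outnumbered exon reads at 7 of them in siNT and at 21 in the libraries labelled siZC3H4. The length of the counted uaRNA region is not given, so these ratios compare reads, not reads per base.

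The antisense reads beside Zfp genes were mostly higher in the libraries labelled siZC3H4. Of the 159 uaRNAs tested, 97 rose (61.0%) and 0 fell with the authors' depth factors, beside 62.1% and 1.13% of all 5124 uaRNAs tested. Rescaling the uaRNA table on itself with median-of-ratios or TMM factors sets the median of all uaRNAs near 0. It left 14 or 15 higher (8.8% or 9.4%, beside 10.5% or 10.9% of all). Lower were 18 or 16 (11.3% or 10.1%, beside 11.5% or 11.0% of all). Without replicate 2 labelled siZC3H4, 53 rose (33.3%, beside 35.9% of all). At an unadjusted limma p under 0.05, 0 were lower, beside 1.37% of all uaRNAs. The median change of the 159 was 0.86, the quartiles were 0.48 and 1.20, and 145 were above 0, beside a median of 0.88 over all uaRNAs. After rescaling by the median of ratios, 68 of those 145 were below 0. Both libraries labelled siZC3H4 lay above every siNT library at 121 of them (76.1%, beside 73.7% of all) and below every siNT library at 3 (1.89%, beside 2.11%). In bulk samples, a change in the share of cells that make an RNA and a change in the amount per cell cannot be told apart.

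The share that rose varied with the level of the region. Among the 53 Zfp uaRNAs with the lowest mean level 24 rose (45.3%), among the middle 53 it was 40 (75.5%), and among the highest 53 it was 33 (62.3%). Over all uaRNAs at the same level limits the shares were 50.0%, 65.8% and 69.1%. The median change was 0.81, 0.94 and 0.69 in the 3 levels of Zfp uaRNAs.

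The uaRNA of Zfp94 had the largest change among the members. It had 48, 53.9 and 42.7 reads in siNT against 624 and 339 in the libraries labelled siZC3H4, a log2 change of 3.23 (SE 0.28, limma adjusted p = 1.46e-14). The groups lay far apart. Zfp94 is a gene of chr7:24301704-24316625 on the minus strand, and RefSeq places the pseudogene Gm44513 within the 1 kb upstream of its start. Zfp1 and Zfp655 also ranked among the 12 largest rises and started from higher control levels than Zfp94. Zfp1 had 117, 146 and 110.1 reads against 673 and 487 (2.20, SE 0.24, limma adjusted p = 4.79e-11). Zfp655, which encodes a partner of the signalling protein Vav, had 104, 60.9 and 118 against 503 and 341 (2.18, SE 0.27, limma adjusted p = 7.61e-10). At all 3 genes replicate 2 of the libraries labelled siZC3H4 was the higher of its pair, and no library of one group reached the other.

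The other large rises started from low control levels. Of the 12 members with the largest rises, 9 had a siNT mean under 20 reads, so their fold changes rest on few reads. Zfp868 and Zfp286, for instance, had siNT means under 10 and were tested only through their higher values in the libraries labelled siZC3H4. Zfp868 had 11, 1.74 and 7.68 uaRNA reads in siNT and 45.3 and 31.5 in the libraries labelled siZC3H4 (2.56, SE 0.50). Zfp445, which keeps genomic imprints together with Zfp57, had 20, 13.9 and 15.4 against 119 and 57.4 (2.28, SE 0.37). Its replicates 2 and 3 labelled siZC3H4 differed widely, yet both lay above every control. Zfp819, a repressor of retroelements in pluripotent cells, had 17, 10.4 and 12.8 against 69.6 and 47.8 (2.05, SE 0.39). The remaining 6, Zfp51, Zfp286, Zfp108, Zfp365, Zfp112 and Zfp444, rose by 2.31, 2.22, 2.14, 2.08, 2.03 and 1.84, from control levels of 3.48 to 21 reads. All 12 were called higher with any single library left out and by edgeR and DESeq2 on the recovered reads, and 10 of them (not Zfp108 and Zfp286) also after rescaling the uaRNA table on itself by TMM or by the median of ratios.

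**Figure D1:**
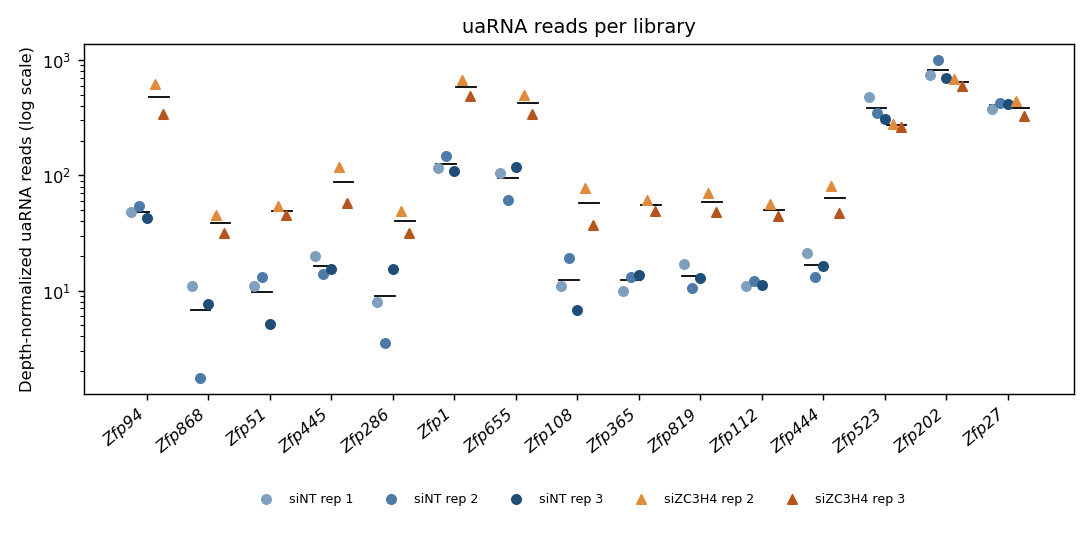
Depth-normalized uaRNA reads (vertical log axis) in each of the 3 siNT libraries (circles) and 2 libraries labelled siZC3H4 (triangles), with the group mean as a line, for the 12 Zfp genes with the largest uaRNA rises, ordered by size, and for Zfp523, Zfp202 and Zfp27. At the 12 genes both triangles lie above every circle, as for Zfp94 with 624 and 339 against at most 53.9, and at Zfp523 and Zfp202 both lie below.

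The uaRNAs with the most reads changed less. Zfp64, a zinc finger gene needed by leukaemias with MLL fusions, had 1761, 1876 and 1624 uaRNA reads in siNT and 2559.7 and 1859 in the libraries labelled siZC3H4, which overlapped (0.32, limma adjusted p = 0.150). Zfp553 had 1234, 1049 and 1093 against 1336 and 1345 (0.26, limma adjusted p = 0.254), and Zfp428 had 1059, 927 and 857 against 1258 and 925 (0.19, limma adjusted p = 0.410). None of these 3 passed the threshold with the authors' depth factors, but with the uaRNA table rescaled on itself all 3 were called lower, by -0.57, -0.64 and -0.70 with the median of ratios (limma adjusted p = 0.0362, 0.0155 and 0.0130) and also with TMM. Zfp219 rose, from 1422, 962 and 934 to 2546 and 1871 (1.01, SE 0.21, limma adjusted p = 3.90e-05). Zfp704 rose by 0.53 (limma adjusted p = 0.0199), from 1151, 1273 and 944 to 1697 and 1521, but its sign turned when the uaRNA table was rescaled on itself, to -0.36, -0.34 and -0.043 by the median of ratios, TMM and equal totals.

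At 3 members, picked out after their values were seen, both libraries labelled siZC3H4 had fewer uaRNA reads than every control. Zfp523, a relative of the transcription factor STAF, had 481, 351 and 311 reads in siNT and 281 and 264 in the libraries labelled siZC3H4 (-0.46, SE 0.23, limma adjusted p = 0.0788). Zfp212 had 176, 124 and 131 against 114 and 97.5 (-0.43, SE 0.27, limma adjusted p = 0.154). Zfp202, whose human counterpart represses genes of lipid metabolism, had 740, 1006 and 704 against 686 and 601 (-0.33, SE 0.21, limma adjusted p = 0.171). None passed the threshold with the authors' depth factors, and the gaps between the groups were small beside the spread of the controls. After rescaling by the median of ratios all 3 were called lower, by -1.35, -1.31 and -1.22 (limma adjusted p = 0.00101, 0.00138 and 0.00208). Zfp202 also stood out by its ratio, since its siNT exon reads were only 74, 65.2 and 81.9, far below its uaRNA reads.

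The promoter windows of 3 of the 4 members with the largest uaRNA rises (Zfp51 is the other) and of the 3 just described are shown. The latter are not the 3 lowest changes, since Zfp972 (-0.43) and Zfp318 (-0.38) lay below Zfp202 (-0.33). Each is a RefSeq window of the GRCm38.p6 build, 300 bases from 250 before to 50 after the annotated start, 5′ to 3′ on the strand of the gene, with every CpG dinucleotide in capitals. For Zfp94 the window is chr7:24316617-24316916 (minus strand), for Zfp868 chr8:69625499-69625798 (minus strand), for Zfp445 chr9:122865957-122866256 (minus strand), for Zfp523 chr17:28177168-28177467 (plus strand), for Zfp212 chr6:47920318-47920617 (plus strand) and for Zfp202 chr9:40192066-40192365 (plus strand).
Zfp94: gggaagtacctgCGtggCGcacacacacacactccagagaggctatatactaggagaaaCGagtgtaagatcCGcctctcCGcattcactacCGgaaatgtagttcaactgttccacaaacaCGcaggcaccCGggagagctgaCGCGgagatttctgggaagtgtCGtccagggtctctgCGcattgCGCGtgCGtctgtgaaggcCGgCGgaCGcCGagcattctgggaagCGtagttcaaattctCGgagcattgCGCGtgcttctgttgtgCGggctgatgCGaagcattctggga
Zfp868: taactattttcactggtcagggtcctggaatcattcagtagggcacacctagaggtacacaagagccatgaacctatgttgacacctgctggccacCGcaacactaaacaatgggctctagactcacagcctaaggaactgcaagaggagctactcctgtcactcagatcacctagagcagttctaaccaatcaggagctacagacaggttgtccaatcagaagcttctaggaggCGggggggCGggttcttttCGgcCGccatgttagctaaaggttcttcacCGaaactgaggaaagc
Zfp445: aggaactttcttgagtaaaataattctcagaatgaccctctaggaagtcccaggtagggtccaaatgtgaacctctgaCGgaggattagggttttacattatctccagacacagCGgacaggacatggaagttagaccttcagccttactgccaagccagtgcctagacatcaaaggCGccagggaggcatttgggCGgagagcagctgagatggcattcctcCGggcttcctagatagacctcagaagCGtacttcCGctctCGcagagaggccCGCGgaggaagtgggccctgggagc
Zfp523: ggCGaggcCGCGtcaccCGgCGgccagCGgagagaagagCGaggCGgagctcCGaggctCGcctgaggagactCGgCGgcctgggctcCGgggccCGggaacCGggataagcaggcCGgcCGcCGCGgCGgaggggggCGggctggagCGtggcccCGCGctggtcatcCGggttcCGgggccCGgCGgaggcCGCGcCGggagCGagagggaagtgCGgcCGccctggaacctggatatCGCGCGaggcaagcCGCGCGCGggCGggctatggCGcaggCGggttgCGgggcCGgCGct
Zfp212: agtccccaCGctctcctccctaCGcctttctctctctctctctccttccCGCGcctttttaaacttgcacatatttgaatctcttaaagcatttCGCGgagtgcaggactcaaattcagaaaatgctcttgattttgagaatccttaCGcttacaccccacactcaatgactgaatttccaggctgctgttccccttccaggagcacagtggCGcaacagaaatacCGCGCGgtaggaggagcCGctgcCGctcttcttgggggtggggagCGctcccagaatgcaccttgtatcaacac
Zfp202: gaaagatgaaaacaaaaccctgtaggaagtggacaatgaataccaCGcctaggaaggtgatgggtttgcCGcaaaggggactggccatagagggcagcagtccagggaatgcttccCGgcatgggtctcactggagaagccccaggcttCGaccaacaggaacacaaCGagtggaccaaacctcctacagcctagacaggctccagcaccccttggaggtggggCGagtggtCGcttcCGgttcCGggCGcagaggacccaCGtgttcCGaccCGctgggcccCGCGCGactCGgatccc
Zfp868 had 6 CpG dinucleotides in its window, Zfp445 10 and Zfp94 25. Zfp212 had 14, Zfp202 17 and Zfp523 47, so the counts spanned 6 to 25 in the 3 large rises and 14 to 47 in the other 3. The window of Zfp94 held the letters CCCAGAA 3 times on the antisense strand, where they read as ttctggg above, and that of Zfp212 held them once on the sense strand. These letters form part of the known motif of STAF-type zinc finger factors, and they were searched for only after the Zfp94 window had been seen.

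The same features were counted over all members with a window. RefSeq held a window for 268 of the 324 symbols, and for 258 it lay within 500 bases of the start used in the exon table. Their median GC content was 54.3% and their median CpG count 15, against 62.3% and 22 in 9330 promoters of the table. The letters GGTAAG or GTAAGT, which resemble the start of an intron, occurred on the antisense strand of 4.65% of Zfp windows and 4.44% of all, and the polyadenylation letters AATAAA in 6.59% and 4.30%. CCCAGAA on either strand occurred in 14.3% of Zfp windows and 8.64% of all. Among Zfp genes whose uaRNA was tested, it occurred in 9 of the 74 windows of risen uaRNAs and in 9 of the 51 windows of those not called (12.2% and 17.6%, beside 8.78% and 7.61% over all uaRNAs). The intron-start letters on the antisense strand occurred in 4 and 0 of these windows (5.41% and 0%, beside 3.68% and 2.86%) and AATAAA in 6 and 1 (8.11% and 1.96%, beside 2.95% and 4.88%). These counts are small and no difference between them was tested. Median GC content was 57.3% in the windows of risen uaRNAs and 55.3% in the others.

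Exon reads of the Zfp genes themselves had a median change near 0. Of the 313 genes tested, 4 rose (1.28%) and 0 fell, beside 2.22% risen and 0.144% fallen of all 12482 genes tested, and 309 did not pass the threshold. Over the 11595 protein-coding genes tested, 1.62% rose and 0.147% fell. At an unadjusted limma p under 0.05, 29 were higher and 14 lower (9.27% and 4.47%, beside 11.0% and 4.39% of all). On the recovered reads edgeR called 5 higher (1.60%, beside 2.76% of all) and DESeq2 11 (3.51%, beside 4.30%), and neither called any lower. The median change was 0.016, with quartiles of -0.12 and 0.20, beside a median of 0.015 over all genes. Both libraries labelled siZC3H4 lay above every control for 58 members (18.5%, beside 19.5% of all and 17.5% of protein-coding genes). They lay below every control for 30 (9.58%, beside 12.8% and 13.2%).

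Zfp688 had the largest rise. Its exon reads were 317, 280 and 346 in siNT and 668 and 704 in the libraries labelled siZC3H4, a log2 change of 1.13 (SE 0.16, limma adjusted p = 0.00972). The groups were well apart and each was narrow. Its nearest neighbour upstream, Zfp689, lies 21716 bases away on the same strand and had 468, 475 and 445 reads against 504 and 508 (0.13, limma adjusted p = 0.771). Downstream, 12217 bases away on the same strand, Zfp764 had 307, 322 and 242 against 584 and 423 (0.78, limma adjusted p = 0.086), so the groups did not overlap there but the change did not pass the threshold. The window of Zfp688, chr7:127421985-127422284 on the minus strand, is given in the same way because the gene had no uaRNA region listed and the largest exon change among those called.
Zfp688: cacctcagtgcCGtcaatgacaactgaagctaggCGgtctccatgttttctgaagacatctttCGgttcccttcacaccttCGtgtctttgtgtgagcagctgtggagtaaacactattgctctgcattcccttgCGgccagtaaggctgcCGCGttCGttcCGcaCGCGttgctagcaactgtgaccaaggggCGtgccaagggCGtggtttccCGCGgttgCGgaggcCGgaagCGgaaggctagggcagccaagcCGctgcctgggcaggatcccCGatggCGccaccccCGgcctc

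The other 3 rises were smaller. Zfp607b had 234, 229 and 250 exon reads against 417 and 424 (0.82, SE 0.16, limma adjusted p = 0.032). It starts 80 bases from Map3k10, a kinase gene on the opposite strand, whose own exon reads did not pass the threshold (-0.056, SE 0.17, limma adjusted p = 0.938). Zfp113 had 351, 368 and 395 against 605 and 663 (0.77, SE 0.15, limma adjusted p = 0.0316), with its nearest upstream neighbour, Cops6, 5396 bases away. Zfp213 had 472, 474 and 435 against 829 and 733 (0.76, SE 0.14, limma adjusted p = 0.0293). At all 4 genes both libraries labelled siZC3H4 lay above every control, but none of the 4 calls held when siNT replicate 1 or either library labelled siZC3H4 was left out, nor with no filter on low values. Calls were lost over the whole table too, since 0.016% of all genes rose without siNT replicate 1 and 0.29% with no filter. Without siNT replicate 2 only Zfp688 of these 4 was called (1.32% of all genes rose in that setting). Without siNT replicate 3 all 4 were, among 18 members risen and 1 fallen (5.75% and 0.319%, beside 5.42% and 1.11% of all genes in that setting).

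Several members had changes of similar or larger size without passing the threshold, and those outside the naming rule were picked after their values were seen. Zfp541, a germ cell gene required in meiosis, had 8, 11.3 and 1.71 exon reads in siNT and 47.0 and 36.3 in the libraries labelled siZC3H4 (2.66, SE 0.62, limma adjusted p = 0.0596). Its groups were apart but its reads few, and it was called by edgeR (adjusted p = 0.0317) and DESeq2 (adjusted p = 0.00714) on the recovered reads. Zfp879 had 22, 21.7 and 21.3 against 60.6 and 39.2 (1.13, limma adjusted p = 0.110). Zfp318, which controls the choice of IgD transcripts in B cells, had 332, 352 and 358 against 547 and 512 (0.61, limma adjusted p = 0.0724). At the lower end, Zfp316 had 311, 177 and 283 against 151 and 172 (-0.63, limma adjusted p = 0.273), Zfp345 had 184, 157 and 206 against 104 and 143 (-0.57, limma adjusted p = 0.265), and Zfp936 had 1064, 917 and 1146 against 654 and 827 (-0.50, limma adjusted p = 0.161). In these 3 both libraries labelled siZC3H4 lay below every control.

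**Figure D2:**
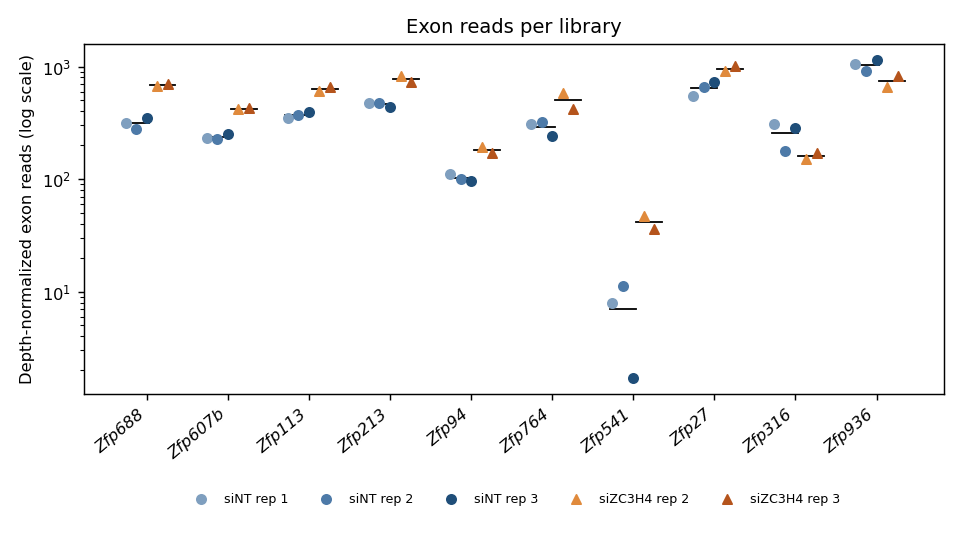
Depth-normalized exon reads (vertical log axis) in each of the 3 siNT libraries (circles) and 2 libraries labelled siZC3H4 (triangles), with the group mean as a line, for the 4 Zfp genes whose exon reads rose (Zfp688, Zfp607b, Zfp113, Zfp213) and 6 that were not called. Zfp688 lies at 280 to 346 in siNT and at 668 and 704 in the libraries labelled siZC3H4, and Zfp541 at the lowest level of the 10 genes.

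The libraries of each group differed in their Zfp exon levels more than in those of all genes. Measured from the siNT mean, the median deviation of the 313 Zfp genes was -0.034, -0.12 and 0.16 in siNT replicates 1, 2 and 3 and -0.061 and 0.15 in replicates 2 and 3 labelled siZC3H4. Over all genes tested the same medians were -0.040, -0.022 and 0.057, then -0.013 and 0.059. Replicates 3 of both groups were thus the higher and replicates 2 the lower for Zfp exons, and the difference between replicates exceeded the difference between the groups. In the uaRNA table the Zfp medians were 0.076, -0.12 and 0.046 in siNT and 0.93 and 0.73 in the libraries labelled siZC3H4, so there the gap between the groups was larger than the spread within them.

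**Figure D3:**
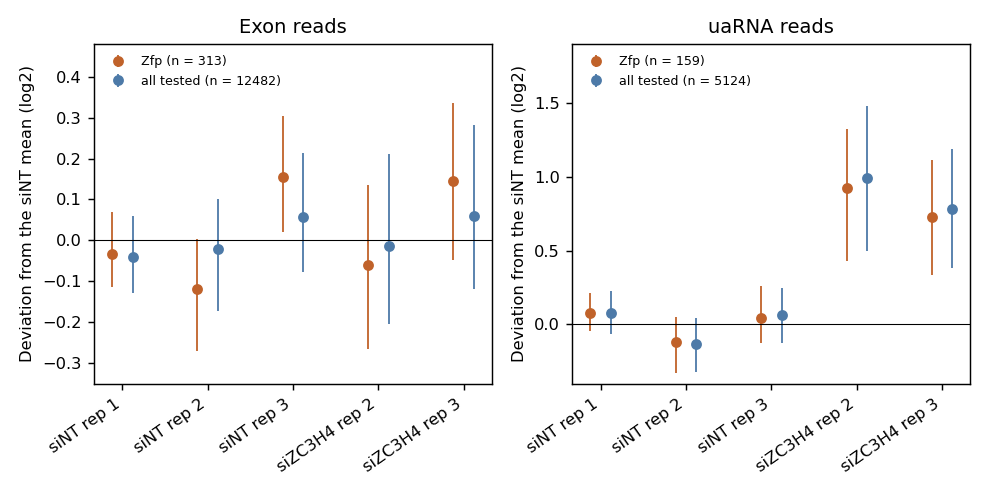
Median deviation from the siNT mean (log2, points) with the quartiles of the genes or regions (bars) in each library, for tested Zfp genes (orange) and all tested features (blue), in exon reads (left) and uaRNA reads (right). In exon reads the Zfp medians run from -0.12 to 0.16 within siNT, while in uaRNA reads both libraries labelled siZC3H4 lie near 0.73 to 0.93.

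Each uaRNA was then set against the exon reads of its own gene within every library, which asks whether the antisense side moved by another amount than the gene. Of 158 Zfp genes with both values tested, 71 had a uaRNA that rose relative to the exon reads (44.9%) and 1 had one that fell, beside 56.1% and 1.19% of all 5106 pairs. Rescaling each table on itself left 12 to 22 risen (7.6% to 13.9%, beside 9.77% to 19.9% of all pairs). It left 7 or 8 fallen (4.43% or 5.06%, beside 5.07% to 8.87% of all pairs). Without replicate 2 labelled siZC3H4, 31 rose (19.6%, beside 27.5% of all pairs). The median difference was 0.76, beside 0.87 over all pairs. Of the 97 Zfp genes with a risen uaRNA, 1 (Zfp213) also had risen exon reads and 96 had exon reads that were not called. Across the 158 genes the 2 changes had a Pearson correlation of 0.148 and a Spearman correlation of 0.0779, a description over genes that share the same 5 libraries and depth factors.

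**Figure D4:**
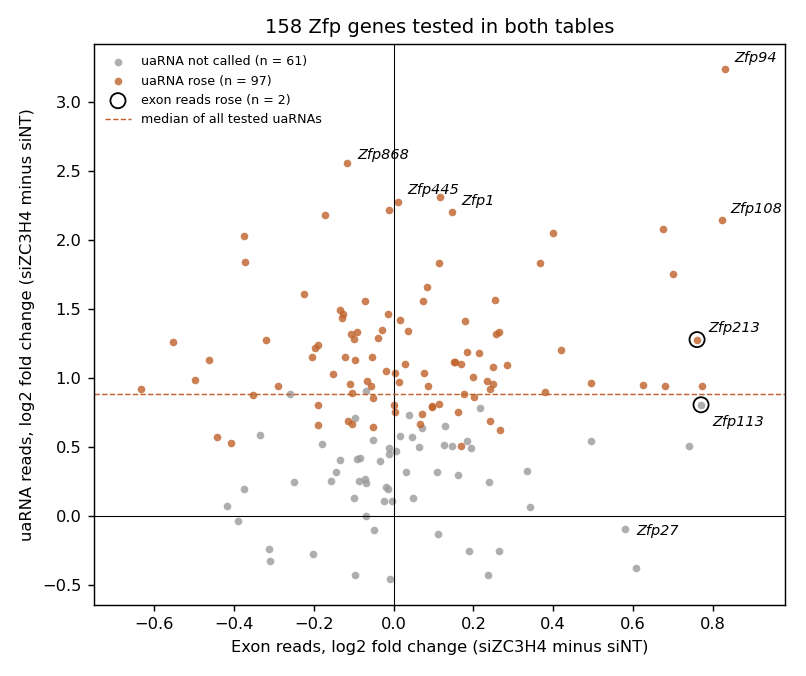
Log2 change of uaRNA reads (vertical) against that of exon reads (horizontal), siZC3H4 minus siNT, for the 158 Zfp genes tested in both tables, with risen uaRNAs in orange, those not called in grey and a ring around the genes whose exon reads rose. The orange points spread over both sides of 0 in exon reads, the ringed genes are Zfp213 and Zfp113, and the dashed line is the median of all tested uaRNAs, 0.88.

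The largest relative rises were those of Zfp868 (2.68, SE 0.49), Zfp94 (2.41, SE 0.39), Zfp112 (2.40, SE 0.42), Zfp655 (2.35, SE 0.30) and Zfp445 (2.27, SE 0.36), with limma adjusted p between 2.99e-07 and 4.05e-05. Exon reads of Zfp868 were 473, 453 and 638 against 384 and 588 and those of Zfp445 1871, 1917 and 2227 against 1831 and 2216, overlapping in both cases. Exon reads of Zfp655 overlapped too. Those of Zfp94, 110, 101 and 95.6 against 195 and 170.2, were higher in both libraries without a call (0.83, limma adjusted p = 0.0724), and those of Zfp112, 313, 292 and 308 against 223 and 247, were lower in both without a call (-0.37, limma adjusted p = 0.318). The 1 relative fall was that of Zfp27. Its uaRNA reads were 379, 423 and 416 against 439 and 327, while its exon reads were 550, 656 and 729 against 915 and 1004. The relative change was -0.68 (SE 0.28, limma adjusted p = 0.0381). It was -1.53, -1.52 and -1.25 with each table rescaled by the median of ratios, TMM and equal totals, and called in all 3, but with the authors' depth factors it did not pass the threshold without siNT replicate 1, siNT replicate 2 or replicate 3 labelled siZC3H4, where it was -0.62, -0.66 and -0.40 (limma adjusted p = 0.105, 0.0705 and 0.344). At Zfp213, where both sides rose, the uaRNA had 113, 104 and 125 reads against 349 and 221 (1.28, limma adjusted p = 2.98e-05), and the relative change of 0.52 was not called. RefSeq places the noncoding gene 6330415G19Rik within the 1 kb upstream of Zfp213, and whether its reads entered the uaRNA region was not tested.

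Some uaRNA regions lay close to annotated genes. RefSeq genes overlapped the 1 kb upstream of 42 of the 198 Zfp uaRNA hosts (21.2%, beside 21.3% of all). Of those tested, 20 of 35 rose with such a gene and 77 of 124 without one (57.1% and 62.1%, beside 58.9% and 63.0% over all uaRNAs). The median change was 0.71 and 0.89, beside 0.80 and 0.90 over all uaRNAs.

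Of 19 Zfp genes with a well known role, 16 were in the exon table. In exon reads 0 of them were called, beside 2.22% risen and 0.144% fallen of all genes tested. Among regulators of pluripotency and chromatin, Zfp281, which helps cells leave the naive state, had 1112, 983 and 1789 exon reads against 1151 and 1571 (0.10). Zfp462, a guardian of heterochromatin at lineage enhancers, had 1791, 2175 and 2323 against 2775 and 2902, with no overlap but no call (0.45, limma adjusted p = 0.150). Zfp296 had 2474, 3577 and 2342 against 2633 and 1899 (-0.30), and replicate 3 labelled siZC3H4 lay below every control while replicate 2 did not. Zfp217, a partner of the RNA methylation machinery, Zfp148, a transcription factor of GC-rich promoters, and Zfp335, a factor of neural progenitors, changed by 0.044, -0.035 and 0.12.

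Members that silence retroelements or imprinted genes were likewise not called in exon reads. Zfp809, which silences murine leukaemia proviruses, had 606, 551 and 829 against 533 and 669 (-0.13). Zfp932, a repressor of endogenous retroviruses, had 95, 80.9 and 131 against 64.5 and 86.0 (-0.42). Zfp819 had 2166, 2163 and 3017 against 2952 and 3447 (0.40, limma adjusted p = 0.290) and Zfp568, which represses a placental transcript of Igf2, had 7049, 6863 and 9087 against 6308 and 8549.7 (-0.050). The groups overlapped at each of these 4 genes. Of those in RNA processing, protein turnover and other roles, Zfp326, a splicing factor, Zfp91, a ubiquitin ligase, Zfp106, an RNA-binding protein, and Zfp609, a partner of the cohesin loader Nipbl, changed by -0.22, 0.17, -0.11 and -0.028.

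Of these 16, 6 had a uaRNA region and 5 of those were tested. All 5 rose with the authors' depth factors, beside 62.1% of all uaRNAs. After rescaling by TMM or the median of ratios those of Zfp207 and Zfp568 turned to slightly below 0. The uaRNA of Zfp568 had 707, 518 and 753 reads against 1098 and 1259 (0.85, SE 0.21, limma adjusted p = 4.99e-04). That of Zfp207 had 201, 138 and 249 against 320.3 and 352 (0.81, limma adjusted p = 0.00386). That of Zfp609 had 14, 9.57 and 7.68 against 31.1 and 23.9 (1.35, limma adjusted p = 0.00773), a change of larger size on far fewer reads. Zfp445 and Zfp819, described above with the largest rises, are the other two.

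Many members lie side by side, so the changes were also read by position. Joining members with gaps of at most 250 kb gave 27 clusters of 3 or more genes, which held 168 members (51.9%). Chromosome 7 alone held 82 members (25.3%) and chromosome 17 held 38. In clusters 2 of 163 genes tested rose in exon reads and outside them 2 of 150, beside 2.22% of all genes. Of the uaRNAs tested, 50 of 87 rose in clusters (57.5%, median change 0.81) and 47 of 72 outside (65.3%, median 0.88). Over all uaRNAs 62.1% rose, with a median of 0.88. The difference between the shares in and outside clusters was not tested, since genes are not replicates.

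Within single clusters exon and uaRNA reads were described separately. The median exon change per cluster lay between -0.33 and 0.35, above 0 in 15 clusters and below 0 in 12. Of the 17 clusters with 3 or more uaRNAs tested, all tested uaRNAs rose in 5 and none rose in 1. These counts hold with the authors' depth factors, under which 62.1% of all uaRNAs rose. All 5 rose in the chromosome 7 cluster from Zfp787 to Zfp28, where Zfp444 rose by 1.84 and Zfp787 by 1.15. All 4 rose in the cluster from Zfp936 to Zfp819 on chromosome 7 and in that from Zfp560 to Zfp846 on chromosome 9, where Zfp266 rose by 1.61 and Zfp846 by 1.10. After rescaling by the median of ratios Zfp444 was still called higher (0.97, limma adjusted p = 0.0417). Zfp787, Zfp266 and Zfp846 (0.26, 0.73 and 0.23) were not. All 3 rose in the clusters from Zfp119a to Zfp119b on chromosome 17 and from Zfp397 to Zfp24 on chromosome 18. In the chromosome 7 cluster from Zfp628 to Zfp580, 0 of 3 passed the threshold, although Zfp628 had 327, 418 and 346 against 565 and 413 (0.42) and Zfp865 424, 392 and 387 against 603 and 499 (0.45).

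The chromosome 7 cluster from Zfp112 to Zfp575 (chr7:24112376-24587641) held the uaRNAs of Zfp94, Zfp108 and Zfp112. Of its 6 uaRNAs tested 5 rose, with a median change of 1.57, beside 62.1% risen and a median of 0.88 over all uaRNAs. The sixth was that of Zfp428. Its 10 tested genes had a median exon change of 0.35, the highest of the 27 clusters, with none of them called. Both libraries labelled siZC3H4 lay above every control for 5 of the 10 (beside 19.5% of all genes), namely Zfp108 (0.82), Zfp94 (0.83), Zfp93 (0.68), Zfp109 (0.53) and Zfp114 (0.50), and below every control for Zfp112 (-0.37). Zfp93 had 150, 151 and 218 exon reads against 253 and 295 and Zfp108 had 53, 57.4 and 75.9 against 108 and 111. Zfp61, which lies 2303 bases downstream of Zfp94 on the same strand, had 586, 596 and 567 against 655 and 516 (-0.00234). Genes whose groups overlapped thus lay between the others in the same cluster.

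The most highly transcribed members of the clusters differed in their antisense reads. Cluster medians of the siNT exon level ran from 23.5 to 289.7 reads per kb, and the leading genes of the larger clusters included Zfp568 (1068 per kb), Zfp819 (1037), Zfp428 (721), Zfp110 (643) and Zfp444 (505). Zfp110 and Zfp446 share a chromosome 7 cluster. The uaRNA of Zfp110 had 137, 139 and 146 reads against 155 and 149 (0.11, limma adjusted p = 0.706), and after rescaling by the median of ratios it was called lower (-0.77, limma adjusted p = 0.0152). That of Zfp446 rose from 204, 224 and 118 to 626 and 352 (1.42, limma adjusted p = 4.90e-06). In both genes the exon reads of the groups overlapped. Zfp59 had one of the clearest rises outside the 12 largest, with 57, 42.6 and 59.7 uaRNA reads against 184 and 195 (1.83, limma adjusted p = 2.47e-07), and Zfp850 of the same cluster had 15.9 ± 3.38 (SD, n = 3) against 23.6 ± 5.01 (SD, n = 2) (0.55, limma adjusted p = 0.245). Zfp141 rose from 64, 47.0 and 63.1 to 136 and 129 (1.19), and Zfp977 of the same cluster, with 119, 114 and 134 against 179 and 148, was not called (0.41). Risen and uncalled uaRNAs thus occurred together in these 3 clusters.

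Beyond chromosome 7, Zfp653 on chromosome 9 rose from 417, 343 and 333 to 689.9 and 644 uaRNA reads (0.88, limma adjusted p = 5.75e-04), while its exon reads were 944, 917 and 887 against 672 and 765, lower in both libraries without a call (-0.35, limma adjusted p = 0.241). Zfp459 on chromosome 13 rose from 178, 169.6 and 190.3 to 388 and 286 (0.89, limma adjusted p = 0.00133). Zfp472 on chromosome 17 rose from 97, 108 and 135 to 219 and 226 (0.98, limma adjusted p = 0.00101), and Zfp866 on chromosome 8, in the cluster of Zfp868, from 36, 32.2 and 29.9 to 62.3 and 67.9 (0.97, limma adjusted p = 0.00899). On chromosome 6, Zfp777 had 263, 220 and 189 against 291 and 262 (0.32) and was not called, as Zfp212 of the same cluster was not. In Zfp459, Zfp472 and Zfp866 the exon reads of the groups overlapped. After rescaling by the median of ratios the change of Zfp653 was -0.013. Zfp653 was the 1 uaRNA host among the members with another gene of the exon table starting within 1 kb on the opposite strand. Whether reads of that gene entered the uaRNA region was not tested.

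The cluster from Zfp553 to Zfp689 on chromosome 7 held Zfp688 and Zfp764. Of its 7 genes, 5 had both libraries labelled siZC3H4 above every control and 2, Zfp553 and Zfp771, had both below, beside 19.5% and 12.8% of all genes. Of its 3 tested uaRNAs, that of Zfp771 rose (1.24, limma adjusted p = 0.0059). In the chromosome 17 cluster from Zfp871 to Zfp81 the exon changes of 7 of 8 genes were below 0, beside 47.5% of all genes, with none called and none apart from the controls in both libraries. Zfp871 had 2610, 2576 and 3022 against 2033 and 2619 (-0.24).

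**Figure D5:**
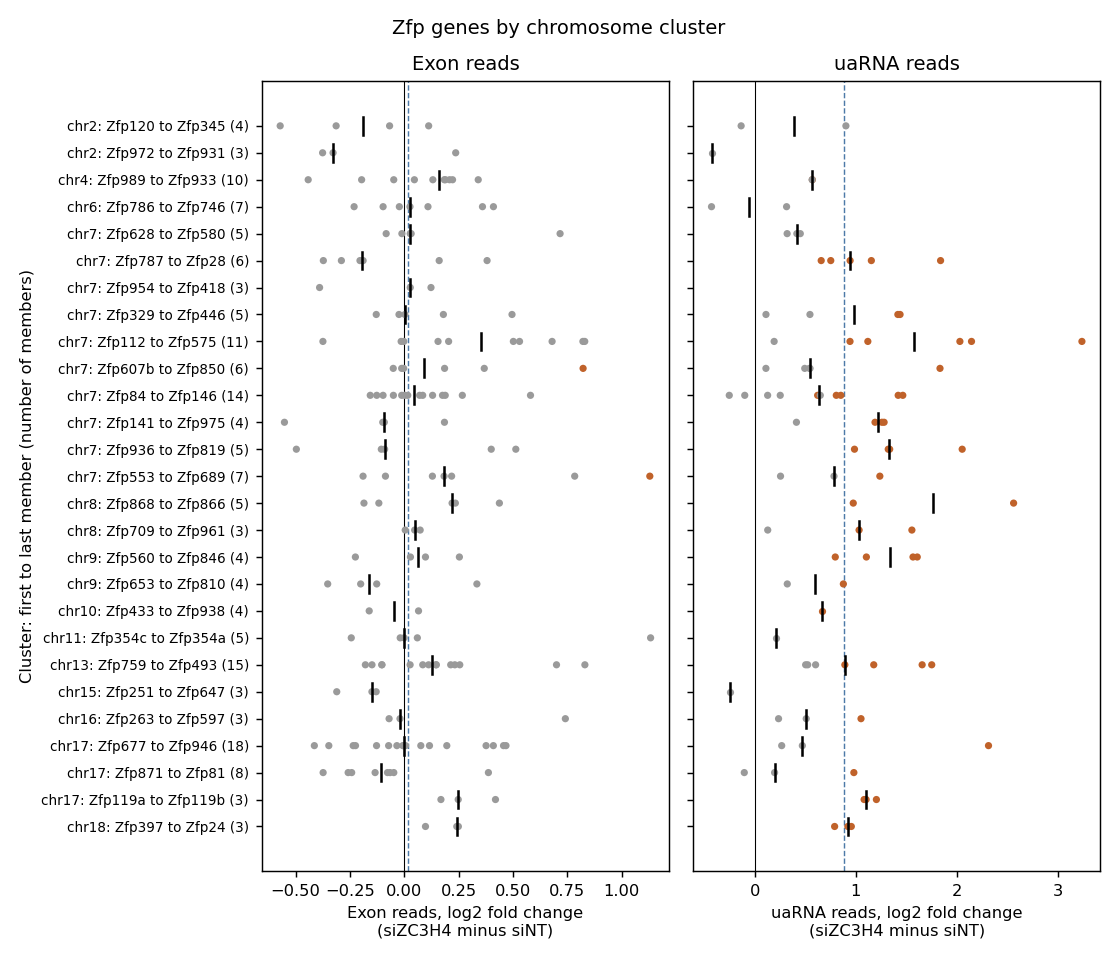
Log2 change, siZC3H4 minus siNT, of exon reads (left) and uaRNA reads (right) for the tested members of each of the 27 chromosome clusters (rows), with called rises in orange, other genes in grey, the cluster median as a black bar and the median of all tested features as a dashed line. In exon reads the cluster medians lie between -0.33 and 0.35, and in uaRNA reads the cluster from Zfp112 to Zfp575 reaches 3.23 at Zfp94.

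Some members could not be measured or told apart. The 11 genes not tested in exon reads were Zfp433, Zfp458, Zfp575, Zfp677, Zfp781, Zfp831, Zfp965, Zfp966, Zfp967, Zfp968 and Zfp973, of which 6 are on chromosome 2. Zfp965 and Zfp968 were listed at 0 in all 5 libraries. The promoter windows of Zfp966 and Zfp967 were identical over 300 bases and those of Zfp965 and Zfp973 over 260. In all, 31 members had a window at least 90% identical over at least 240 bases to that of another member. For 15 of them the best match lay within their own cluster, among them Zfp955a and Zfp955b (100%), Zfp942 and Zfp944 (99.6%) and Zfp747 and Zfp764 (90.1%). The treatment of reads that fit several copies (not given in the sources used here) could move the values of these members, which are therefore uncertain. A further 39 uaRNA regions of members were below the level tested.

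The corepressor pathway that KRAB zinc finger proteins use was read beside them from a list of 23 genes in the table. Of these, 0 were called in exon reads, beside 2.22% risen and 0.144% fallen of all genes, with a median change of -0.024. Trim28, the shared corepressor, had 28669 ± 4022 exon reads in siNT (SD, n = 3) and 29746 ± 3233 in the libraries labelled siZC3H4 (SD, n = 2), and Setdb1 had 2880 ± 415 (SD, n = 3) and 3171 ± 278 (SD, n = 2). Of 14 uaRNAs tested 10 rose and 0 fell, with a median change of 0.80, beside 62.1% risen and a median of 0.88 over all uaRNAs. After rescaling by the median of ratios 2 were higher and 1 lower, beside 10.5% and 11.5% of all uaRNAs. The rises with the authors' depth factors included Setdb1 (2.04), Trim33 (1.86), Uhrf1 (1.73) and Trim28 (1.33).

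Other zinc finger families were read in the same way. The exon reads of 0 of 31 Zbtb genes and 0 of 19 Zkscan and Zscan genes were called. In exon reads 1 of 14 Klf genes and 1 of 13 Zc3h genes, Zc3h4 itself, rose, beside 2.22% of all genes. Of the uaRNAs tested, 10 of 19 rose for Zbtb, 10 of 11 for Klf and 5 of 9 for Zc3h genes, beside 62.1% of all. For Zkscan and Zscan genes 4 of 7 rose and 2 fell. After rescaling by the median of ratios 2, 2, 0 and 1 of the Zbtb, Klf, Zc3h and Zkscan or Zscan uaRNAs were called higher and 2, 0, 2 and 3 lower. Over all uaRNAs the shares in that setting were 10.5% and 11.5%. No difference between these families and the Zfp genes was tested.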

How the data were processed

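TT-seq libraries of 3 siNT and 2 siZC3H4 samples were used. The submitters' processing notes name cutadapt 1.14, STAR, featureCounts and DESeq2, with builds mm10 and dm6 and no settings. The authors deposited depth-normalized signal for 5867 uaRNA regions and 13088 genes counted over exons. Each value was a whole read count divided by a factor per library (1, 1.15 and 1.172 for siNT, 1.767 and 1.046 for siZC3H4), and 100% of values came out whole within 0.01 reads. The origin of the factors and the strand setting of the counting were not given in the sources used here. Libraries were made with a stranded kit, per the labels' protocols.

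Tests were run on log2(value + 1) with limma 3.58.1 (lmFit and eBayes with a mean-variance trend, R 4.3.3), with Benjamini-Hochberg adjustment over 12482 genes, 5124 uaRNAs or 5106 pairs, a threshold of 0.05 and no block. The script was tested on simulated data. Replicates differed by more than counting noise (each pair's chi-square was at least 4.74 times its degrees of freedom) and were kept separate. edgeR 4.0.16 and DESeq2 1.42.0 were run on the recovered reads as alternatives, with other scalings, pseudocounts, filters, a replicate block and single libraries left out. Promoter windows were compared with blastn 2.17.0.

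Genes were named by rule: those called in exon reads, the 12 largest uaRNA rises, the 5 largest relative changes, the 5 highest levels, the 2 highest genes per kb of each cluster with 4 or more tested members, and a list of known roles. Others were picked after their values were seen. The members and lists were chosen with earlier results of these data known. Protein sequences were not used here.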

Additional observations from a re-analysis of the deposited data

How the results depend on the processing

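Precision is limited by 3 libraries against 2 and by low uaRNA levels, since 39 of 198 Zfp regions were below the level tested. The main dependence was on scaling. With the uaRNA table rescaled on itself, the 97 risen, 0 fallen and median of 0.86 became 14, 18 and -0.021 (median of ratios), 15, 16 and 0.0039 (TMM) and 30, 8 and 0.30 (equal totals). The first 2 of these scalings centre the uaRNAs by construction, and the median of all uaRNAs moved from 0.88 to 0.0077, 0.032 and 0.32. Over all uaRNAs 10.5%, 10.9% and 24.5% were then risen and 11.5%, 11.0% and 6.23% fallen. The uaRNA minus exon figures (71, 1 and 0.76) became 12, 8 and -0.075, then 12, 8 and -0.065, then 22, 7 and 0.19. Over all pairs 9.77%, 10.1% and 19.9% were then risen and 8.87%, 8.64% and 5.07% fallen. Of the 145 uaRNA changes above 0, 68 turned negative under the median of ratios, 65 under TMM and 37 with equal totals. Among named genes called before or after rescaling, those that turned under the median of ratios and TMM included Zfp110 (-0.77, -0.75), Zfp207 (-0.075, -0.050), Zfp428 (-0.70, -0.67), Zfp553 (-0.64, -0.61), Zfp566 (-0.066, -0.041), Zfp568 (-0.039, -0.014), Zfp64 (-0.57, -0.55) and Zfp704 (-0.36, -0.34, and -0.043 with equal totals). Zfp653 turned under the median of ratios (-0.013). Of the genes just listed, Zfp110, Zfp428, Zfp553 and Zfp64 were called lower under both. Zfp777 (-0.57), Zfp628 (-0.47), Zfp977 (-0.47), Zfp865 (-0.44) and Zfp850 (-0.30) also turned under the median of ratios, with no call before or after. With a pseudocount of 10 the uaRNA median was 0.74 and 2 relative falls were called. For exon reads the 4 risen became 0 with no filter (over all genes 38 rose in place of 277) and 11 by DESeq2; the cause was not tested. With single libraries left out, exon rises ranged from 0 to 18 and falls from 0 to 1, with a median of -0.061 to 0.15; uaRNA rises from 53 to 91, falls from 0 to 1 and the median from 0.73 to 0.93; relative rises from 31 to 74, falls from 0 to 1 and the median from 0.55 to 1.00. The lowest uaRNA and relative counts came without replicate 2 labelled siZC3H4, and 0 exon rises without siNT replicate 1 or either library labelled siZC3H4.

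Replicate numbers 2 and 3 are shared by both groups, but nothing in the labels says that they pair samples. Deviations of same-numbered libraries correlated at 0.528 and 0.618 over genes and at 0.376 and 0.426 over uaRNAs. With the replicate number as a block, which drops siNT replicate 1, exon calls became 33 risen and 17 fallen (10.5% and 5.43%, beside 12.3% and 6.65% of all genes) and relative falls 0. Putting Zfp42, Zfp57 and Zfp36 back, the other filter and the smaller pseudocount kept every count within 1.5 times, and cluster gaps of 100 and 1000 kb gave 27 clusters each, with 145 and 204 members.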
